A study of Mus musculus with 16 samples.

Results

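Acetylcholine is the main excitatory transmitter of the myenteric plexus, the network of ganglia between the muscle layers of the gut. Neurons take up choline, join it to acetyl-CoA, load the product into synaptic vesicles and break down what is released, and the next neuron of the circuit is excited through nicotinic receptors, ion channels built of 5 subunits. The genes described here are 9 cholinergic genes of 56748 in the expression table, of which 32841 genes had a count in any library. They were chosen by name: Chat, Slc5a7 and Slc18a3, which make the transmitter and supply it to vesicles, Ache and Bche, which degrade it, and Chrna3, Chrnb4, Chrnb2 and Chrna7, which encode nicotinic subunits.

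RNA was sequenced from longitudinal muscle with the attached myenteric plexus (LMMP) of the mouse colon. The 4 groups of 4 libraries each were wildtype (WT) proximal, Ednrb -/- proximal, WT distal and Ednrb -/- distal colon. Mice were 2 to 4 weeks old, of both sexes and on a hybrid C57BL6/J-129Sv background, and the WT mice were Ednrb +/+ littermates. Ednrb encodes the endothelin receptor B, which neural crest cells need to colonize the gut. Mice homozygous for the Ednrb tm1Ywa allele are a model of Hirschsprung disease (HSCR), in which the distal colon is described as lacking ganglia. In the study's staining that segment held sparse and small ganglia. These mice are called HSCR below. The allele is constitutive, so all tissues carried it, and the ganglionic proximal colon was located by gross distention and then checked by staining of the neuronal protein Tuj1. The 8 libraries titled distal carry a tissue entry that reads proximal, and the titles were followed. The study's methods give an n of 4 per group for the Ednrb -/- mice and their littermates. The labels tie no library to an animal or to the other segment of the same animal, so the p-values measure the spread between these libraries.

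The total count was between 21384372 and 45831881 reads per library, and mitochondrial genes took between 4.32% and 49.8% of it, with the highest share in WT proximal 1. The library names of replicates 1 and 2 of every group follow 1 scheme, and these libraries are called series 1. Those of replicates 3 and 4 do not follow it and are called series 2, although they carry 2 prefixes: WT proximal 3 and 4 and HSCR proximal 4 share one, and HSCR proximal 3 and all distal libraries of the series share the other. What the names mark is not given in the sources used here, and within series 2 prefix and group cannot be told apart in full. Ednrb itself measured 67.7, 33.9, 64.2 and 53.0 CPM (counts scaled to library size) in WT proximal 1 to 4 and 7.85, 12.6, 36.3 and 35.8 CPM in HSCR proximal 1 to 4. In the distal colon it measured 12.2, 16.1, 28.3 and 40.2 CPM in WT and 97.0, 5.55, 5.83 and 9.57 CPM in HSCR. The count per gene does not separate the disrupted part from the rest of the gene. The library labelled HSCR distal 1 thus held the highest Ednrb level of all 16, and its label is in doubt. Its 5 posterior Hox genes, which mark the distal hindgut, averaged 2.94 on the log2 CPM scale, inside the WT proximal range of 1.89 to 3.51 and below the WT distal range of 4.37 to 4.82. HSCR proximal 1 averaged 4.61 on the same Hox genes, inside the WT distal range. Whether these 2 libraries were exchanged was not tested, and both were kept as labelled. The main results are also given without them.

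The labelled tissue was checked on 12 genes of enteric neurons, among them Elavl4, Uchl1, Tubb3, Prph and Snap25. Their mean log2 CPM was between 5.47 and 7.56 in the WT proximal libraries. It was 2.28, 2.30, 5.99 and 5.85 in HSCR proximal 1 to 4. The WT distal libraries measured 2.45, 4.63, 6.89 and 6.28, so WT distal 1 held little neuronal RNA although its label gives a ganglionic colon. HSCR distal 2, 3 and 4 measured 2.73, 0.95 and -0.17, and the library labelled HSCR distal 1 measured 6.22. The HSCR mean minus the WT mean was -2.60 in the proximal colon, a difference that did not pass an exact two-sided permutation test (p = 0.114, where 4 against 4 libraries cannot go below 0.0286). In bulk tissue, fewer neurons and less RNA per neuron cannot be told apart. Smooth muscle genes averaged between 10.2 and 11.8 on the log2 scale in 15 libraries, and 7.45 in HSCR proximal 2, whose epithelial genes averaged 10.3. Skeletal muscle genes summed to 2478 CPM in HSCR proximal 1, against 36.4 to 224 CPM in the WT proximal libraries. They also summed to 1325 CPM in WT distal 1 and 1552 CPM in HSCR distal 2, against 113 to 294 CPM in the other distal libraries. Adipocyte genes were lower in HSCR proximal colon for 4 of 4 tested, 3 of them at an unadjusted p under 0.05, against 4.13% of all genes. The part of these tissues in the results was not tested. Glial genes were lower in the HSCR proximal estimate for 6 of 6, with 5 at an unadjusted p under 0.05, against the same 4.13% of all genes. Of the tuft cell genes, which mark an epithelial cell type that also makes acetylcholine, the mean was below 0 on the log2 CPM scale in every library. That mean is pulled down by genes without reads. Between 1 and 3 of the 7 genes were above 1 CPM in each library, and the list summed to between 9.93 and 231 CPM.

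Choline acetyltransferase, the enzyme that makes acetylcholine, is encoded by Chat on chromosome 14 (ENSMUSG00000021919, mm39 32130160 to 32187946, minus strand). The vesicular acetylcholine transporter gene Slc18a3 (ENSMUSG00000100241, 32184395 to 32186807, minus strand) lies inside it. In the canonical Chat transcript of GENCODE M39, which has 16 exons, Slc18a3 fills part of the first intron, from 32182871 to 32187763. This nested arrangement is known as the cholinergic gene locus. Reads from unspliced Chat RNA over Slc18a3 cannot be told apart from Slc18a3 reads. The long noncoding RNA gene Litchi (32147516 to 32205622, plus strand) covers Slc18a3 and part of Chat on the other strand. Whether counting used the strand is not given in the sources used here, so its reads could also enter both counts. Slc5a7, the high-affinity choline transporter whose uptake limits the rate of synthesis, lies on chromosome 17 (ENSMUSG00000023945, 54580618 to 54606062, minus strand). The bases upstream of these 3 genes are shown because their HSCR levels relative to Chrna3 were apart from WT in the proximal colon. Chrna3 was chosen as that reference after seeing the data, and its upstream bases are shown for comparison. The sequences are RefSeq's, from windows of 250 bases before to 50 bases after each annotated start, and were placed on GRCm39 by an exact match. Only bases upstream of every annotated exon of the gene are printed. Capitals mark the letters GGGCGG or CCGCCC (a GC box on either strand) or CAGCTG (an E-box, the same on both strands).
Chat, chr14:32187947-32188116, minus strand, 170 bases: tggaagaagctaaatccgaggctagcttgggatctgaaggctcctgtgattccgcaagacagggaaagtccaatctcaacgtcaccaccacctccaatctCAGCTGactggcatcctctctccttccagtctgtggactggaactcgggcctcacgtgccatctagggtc
Slc18a3, chr14:32186808-32187057, minus strand, 250 bases: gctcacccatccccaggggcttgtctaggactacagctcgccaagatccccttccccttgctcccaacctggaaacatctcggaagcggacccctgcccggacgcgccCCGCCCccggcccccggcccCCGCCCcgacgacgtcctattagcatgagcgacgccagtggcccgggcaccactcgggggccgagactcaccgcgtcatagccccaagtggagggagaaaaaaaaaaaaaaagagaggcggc
Slc5a7, chr17:54606077-54606312, minus strand, 236 bases: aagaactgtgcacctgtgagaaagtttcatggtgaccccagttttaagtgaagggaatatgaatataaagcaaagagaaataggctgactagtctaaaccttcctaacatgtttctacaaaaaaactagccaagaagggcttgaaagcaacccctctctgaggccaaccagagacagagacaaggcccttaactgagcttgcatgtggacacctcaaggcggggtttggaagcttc
Chrna3, chr9:54933942-54934096, minus strand, 155 bases: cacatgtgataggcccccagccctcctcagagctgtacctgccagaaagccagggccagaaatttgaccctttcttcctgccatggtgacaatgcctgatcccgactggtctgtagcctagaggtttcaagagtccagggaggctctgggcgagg

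All 9 genes had a RefSeq window, with a GC content from 39.3% (Bche) to 74.0% (Ache) against a median of 52.7% over all 32851 windows. A GC box was found in 6 of the 9 windows and in 35.7% of all windows. Slc18a3 held 2, and Chat and Slc5a7 held none. Chrna3 held 1, in the part of its window that is not printed above. The E-box was found in 2 of the 9, Chat and Chrnb4, and in 16.3% of all windows. The 3 genes of synthesis and loading thus had no motif of these in common, which says only that these letters are not in these windows.

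Chat was the member with the fewest reads beside Chrna7. It measured 0.527, 0.553, 14.9 and 5.40 CPM in WT proximal 1 to 4. HSCR proximal 1 and 2 had no Chat read at all, and HSCR proximal 3 and 4 measured 0.827 and 0.465 CPM. The groups overlapped, because the series 1 WT libraries were no higher than the best HSCR libraries. The log2 fold change was -4.06 (SE 1.71), with an adjusted p of 0.747 by edgeR's quasi-likelihood test.

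Slc5a7 measured 6.70, 16.4, 98.3 and 68.9 CPM in WT proximal 1 to 4, and 0.575, 0.439, 7.59 and 6.66 CPM in HSCR proximal 1 to 4. The highest HSCR library exceeded the lowest WT library by less than 1 CPM, and every other WT library was above every HSCR library. The difference was -3.67 on the log2 scale (SE 1.18, adjusted p = 0.718 by edgeR). Slc18a3 measured 4.07, 17.5, 111 and 83.0 CPM in WT proximal 1 to 4 against 0.04998, 1.02, 8.38 and 5.01 CPM in HSCR proximal 1 to 4. It followed Slc5a7 closely, with WT proximal 1 as the only WT library inside the HSCR range. Its log2 fold change was -3.93 (SE 1.39, adjusted p = 0.747 by edgeR).

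**Figure D1:**
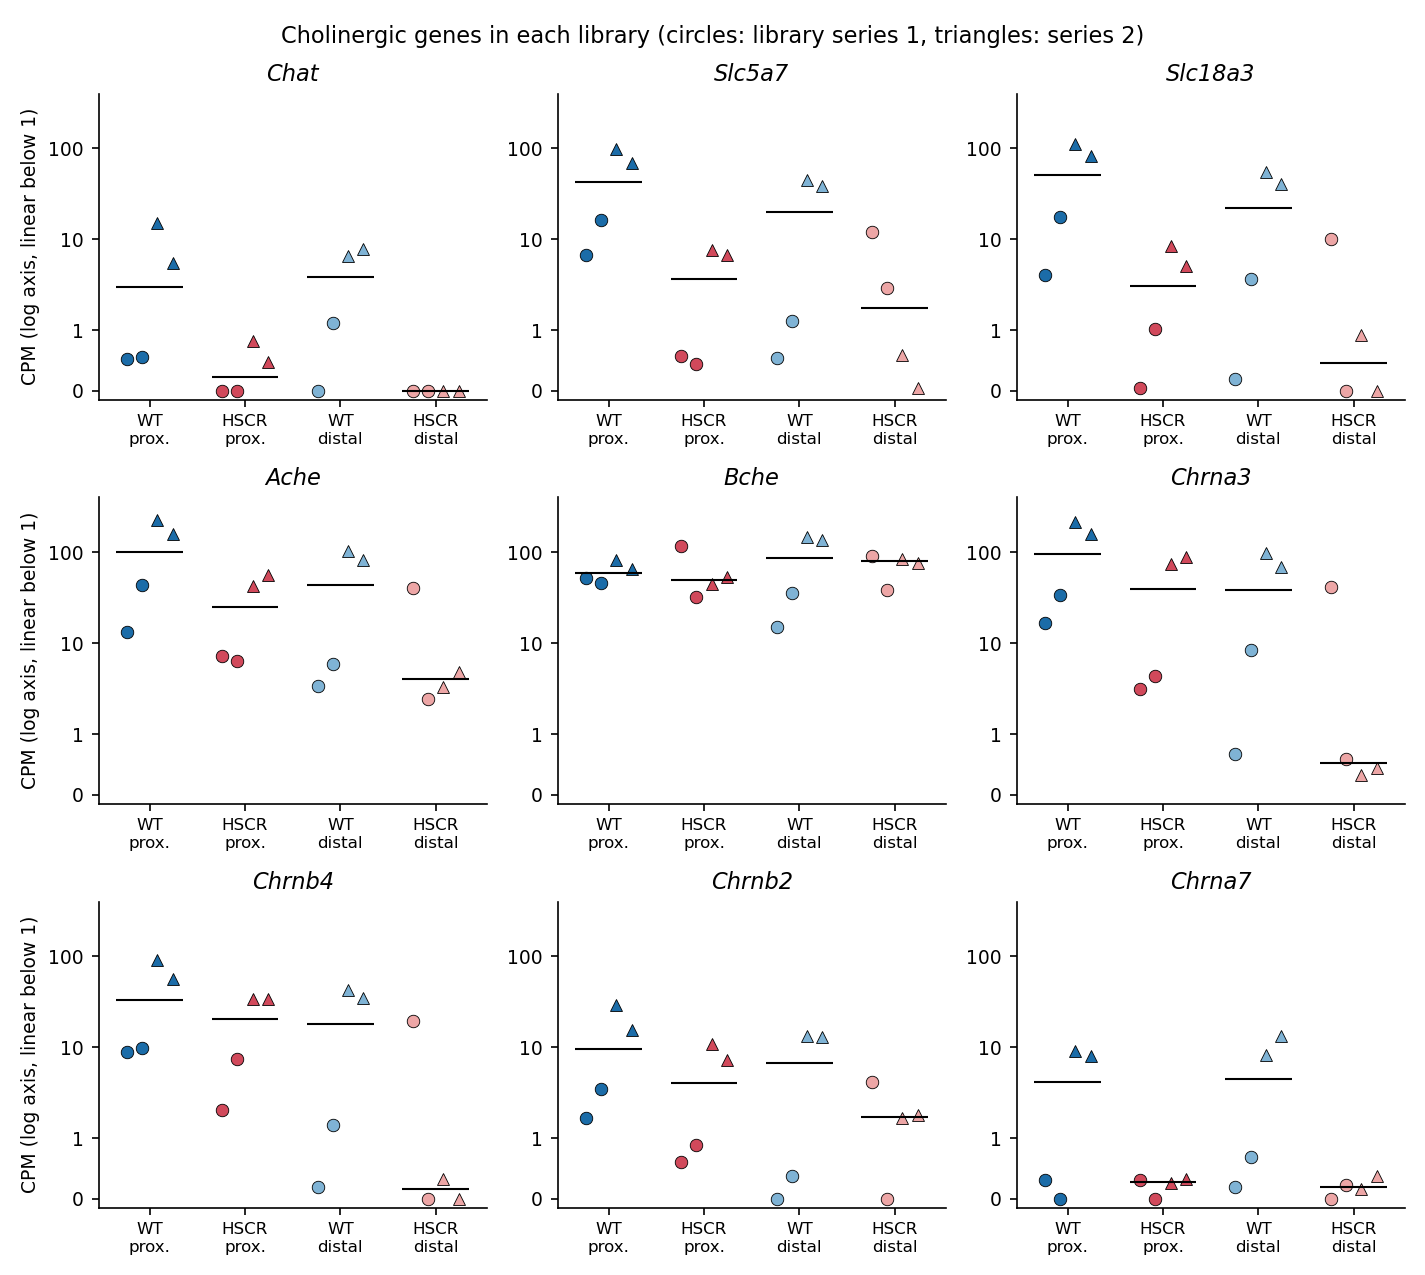
Level of each cholinergic gene in the 16 libraries, in TMM-scaled CPM on a log axis that is linear below 1. Points are libraries (circles for series 1, triangles for series 2) and lines are group medians. Chat reads 0 in all 4 HSCR distal libraries, and the medians of Bche lie between 49.2 and 86.8 CPM in the 4 groups.

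Acetylcholinesterase, the enzyme that ends transmission at the synapse, is encoded by Ache on chromosome 5 (ENSMUSG00000023328, 137285781 to 137292728, plus strand). It measured 13.3, 43.7, 225 and 158 CPM in WT proximal 1 to 4 and 7.17, 6.33, 42.6 and 56.5 CPM in HSCR proximal 1 to 4. HSCR proximal 3 and 4 lay near WT proximal 2, and the groups overlapped (log2 fold change -1.998, SE 0.99, adjusted p = 0.752 by edgeR).

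Butyrylcholinesterase, a broader esterase that is not confined to neurons, is encoded by Bche on chromosome 3 (ENSMUSG00000027792, 73543141 to 73615748, minus strand). The WT proximal libraries measured 52.5, 46.03, 83.0 and 64.7 CPM and the HSCR proximal libraries 117, 32.2, 44.3 and 54.1 CPM. Its log2 fold change was -0.02 with a 95% interval from -0.97 to 0.93, the narrowest interval of the 9 genes. The interval still allows a change of nearly 2-fold either way. Bche changed sign in several alternative analyses, and no direction is given for it.

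Chrna3 and Chrnb4 encode the α3 and β4 subunits, which together form the receptor of autonomic ganglia. They lie side by side on chromosome 9 (Chrna3, ENSMUSG00000032303, 54917395 to 54933846, Chrnb4, ENSMUSG00000035200, 54935438 to 54956063, both minus strand). The end of Chrna3 overlaps that of Chrna5 on the other strand by 790 bases in GENCODE M39. With the strand of counting not given, it is not known to which of the 2 genes, if any, reads in that stretch were assigned. Chrna3 measured 16.7, 33.8, 216 and 157 CPM in WT proximal 1 to 4, and 3.12, 4.31, 74.4 and 88.7 CPM in HSCR proximal 1 to 4. HSCR proximal 3 and 4 exceeded WT proximal 1 and 2. The log2 fold change was -1.34 (SE 1.17, adjusted p = 0.825 by edgeR).

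Chrnb4 measured 8.74, 9.77, 90.9 and 55.6 CPM in WT proximal 1 to 4 against 2.02, 7.39, 33.9 and 33.9 CPM in the HSCR libraries. The overlap was the same as for Chrna3, and the log2 fold change was -1.13 (SE 1.00, adjusted p = 0.825 by edgeR). Chrnb2 on chromosome 3 (ENSMUSG00000027950, 89653502 to 89671939, minus strand) encodes β2, an alternative partner of α3. It was lower in level, at 1.66, 3.43, 28.9 and 15.5 CPM in WT proximal 1 to 4 and 0.600, 0.878, 10.7 and 7.16 CPM in HSCR proximal 1 to 4 (log2 fold change -1.39, SE 1.12, adjusted p = 0.819 by edgeR).

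Chrna7 on chromosome 7 (ENSMUSG00000030525, 62748440 to 62862317, minus strand) encodes α7, which forms channels on its own. It measured 0.301, 0, 9.11 and 8.03 CPM in WT proximal 1 to 4 and 0.300, 0, 0.257 and 0.322 CPM in HSCR proximal 1 to 4. Only WT proximal 3 and 4 stood above the HSCR libraries, which held between 0 and 14 reads each. The log2 fold change of -4.32 (SE 1.76, adjusted p = 0.747 by edgeR) therefore rested on the series 2 WT libraries.

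The question of the proximal comparison was whether ganglionic colon of HSCR mice differs from the same segment of WT mice. A gene was called with an adjusted p under 0.05 and a fold beyond 1.5. None of the 9 genes was called by edgeR's quasi-likelihood test, as none was among all 16664 genes tested (0%). All 9 estimates were below 0, with a median of -1.998, where 46.8% of all genes were below 0 and their median was 0.04. At an unadjusted p under 0.05, 4 of the 9 were lower in HSCR, against 4.13% of all genes. These were Slc5a7 (unadjusted p = 0.0125 by edgeR), Slc18a3 (unadjusted p = 0.0199), Chrna7 (unadjusted p = 0.0362) and Chat (unadjusted p = 0.0415). No gene of the 9 had all HSCR libraries below all WT libraries, against 2.83% of all genes. Without HSCR proximal 1, the number at an unadjusted p under 0.05 was 2 of the 8 genes then tested, against 2.92% of all genes, and the log2 fold changes were -3.28 for Slc5a7, -3.49 for Slc18a3 and -0.93 for Chrna3.

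The call depended on the test. DESeq2 called 2 of the 9 (Slc5a7 adjusted p = 0.0260, Slc18a3 adjusted p = 0.0491) and 1.16% of all genes. With the library series as a term, edgeR called Slc5a7 alone (log2 fold change -4.03, adjusted p = 0.0466) and 0.024% of all genes. RUVr, which estimates hidden factors from the residuals of a first fit, called 7 of the 9 with 4 factors, all except Bche and Chrna7, and called 20.7% of all genes. Its smallest adjusted p among the 9 was 6.42e-17, for Slc5a7. The 4 factors take up residual spread of the same libraries, so the RUVr p-values do not measure the full spread between them.

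**Figure D2:**
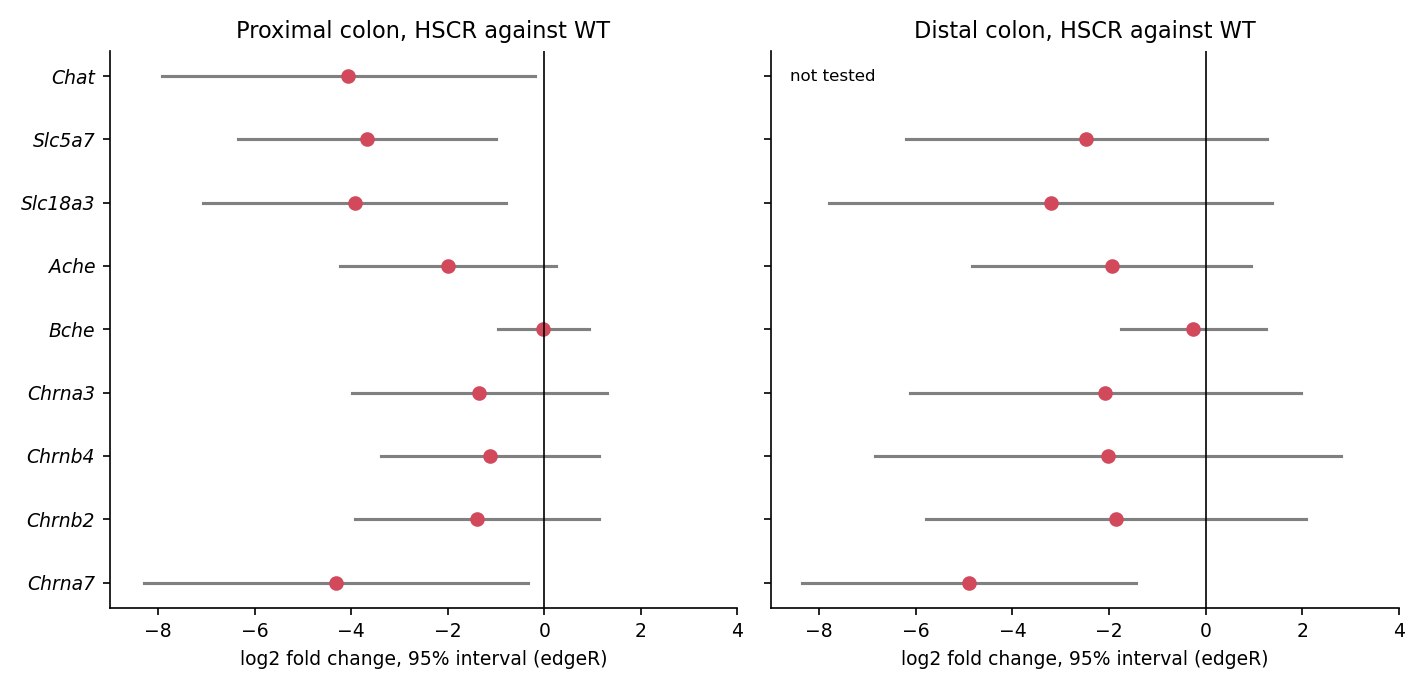
Log2 fold change of each gene in HSCR against WT (points, edgeR's quasi-likelihood fit) with 95% intervals (lines), in the proximal and the distal colon. In the proximal colon the intervals of Chat, Slc5a7, Slc18a3 and Chrna7 lie below 0 before adjustment, and no adjusted p passed 0.05.

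Each library series was also compared on its own, an analysis chosen after seeing the data. In series 2 all 9 genes had both HSCR proximal libraries below both WT proximal libraries, against 23.7% of all genes. The mean CPM was 11.7-fold lower for Slc5a7, 14.5-fold for Slc18a3, 15.7-fold for Chat and 29.6-fold for Chrna7. In the same libraries it was 2.29-fold lower for Chrna3, 2.16-fold for Chrnb4, 2.48-fold for Chrnb2 and 3.87-fold for Ache. The folds of the synthesis and loading genes were thus larger than those of the α3 and β4 subunits in 2 against 2 libraries, a number too small for a test. In series 1 the HSCR libraries were below the WT libraries for 7 of the 9, against 13.9% of all genes, with Bche and Chrna7 as the others. There Slc5a7 was 22.8-fold lower, Slc18a3 20.1-fold and Chrna3 6.79-fold. Against HSCR proximal 2 alone, without HSCR proximal 1, the folds were 26.3, 10.5 and 5.85. Neuronal RNA differed in the same direction, by -3.62 on the log2 scale in series 1 and by -1.59 in series 2, and its part in these values was not tested.

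To set each gene beside the neuronal RNA of its own library, the mean log2 CPM of the 12 neuron genes was subtracted from its log2 CPM. On this scale Slc5a7 measured -2.72, -2.32, -0.94 and -1.34 in WT proximal 1 to 4 and -3.05, -3.43, -3.06 and -3.11 in HSCR proximal 1 to 4. All HSCR libraries were below all WT libraries, with a mean difference of -1.33 (exact two-sided permutation p = 0.0286, the smallest this design can give, unadjusted over the 9 genes). It was the only one of the 9 for which the groups did not overlap downward, against 0.078% of all genes tested. This share is not a chance rate for a neuronal gene. The neuron genes themselves differed by -2.60, so subtracting them raises the HSCR values of genes that did not fall with them. The separation was also there without HSCR proximal 1, where the difference was -1.37. It was lost with 5 of the neuron genes alone as the reference (Elavl4, Uchl1, Tubb3, Prph and Snap25), although the difference was -1.23. The library labelled HSCR distal 1 measured -2.63 on this scale, above WT proximal 1, so the separation would be lost if it were a proximal library.

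The differences of Chat and Slc18a3 beside neuronal RNA were -1.92 (exact permutation p = 0.143) and -1.87 (exact permutation p = 0.114), with overlapping groups. For Chat, 2 of the 8 libraries held no more than 3 reads, and for Slc18a3 1 of them did, so these differences depend on the prior count of 0.5. With a prior count of 2 they were -1.03 for Chat and -1.73 for Slc18a3. Without HSCR proximal 1, which held 2 reads, the difference of Slc18a3 was -1.02.

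For the receptor subunits and the esterases the mean differences were above 0 and none passed the test. Chrnb4 measured -2.34, -3.06, -1.05 and -1.64 in WT proximal 1 to 4 and -1.25, 0.59, -0.90 and -0.76 in HSCR proximal 1 to 4. Its mean was 1.44 higher in HSCR beside neuronal RNA, with only WT proximal 3 inside the HSCR range (exact permutation p = 0.0571). Chrna3 was 0.67 higher (exact permutation p = 0.257), Chrnb2 1.12 higher (exact permutation p = 0.0857), Ache 0.71 higher (exact permutation p = 0.2) and Bche 2.47 higher (exact permutation p = 0.114). Chrna7 differed by 0.16 with an exact permutation p of 0.886. WT proximal 2 and HSCR proximal 2 held no Chrna7 read and measured -12.1 and -8.08. These 2 values are set by the prior count, the library size and the neuronal RNA of the library, so the difference of Chrna7 depends on the prior count. Without HSCR proximal 1 the difference was 1.4998 for Bche and -0.80 for Chrna7. In series 2 alone it was -0.36 for Ache and -3.25 for Chrna7, and the sign of both thus depended on the libraries used.

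**Figure D3:**
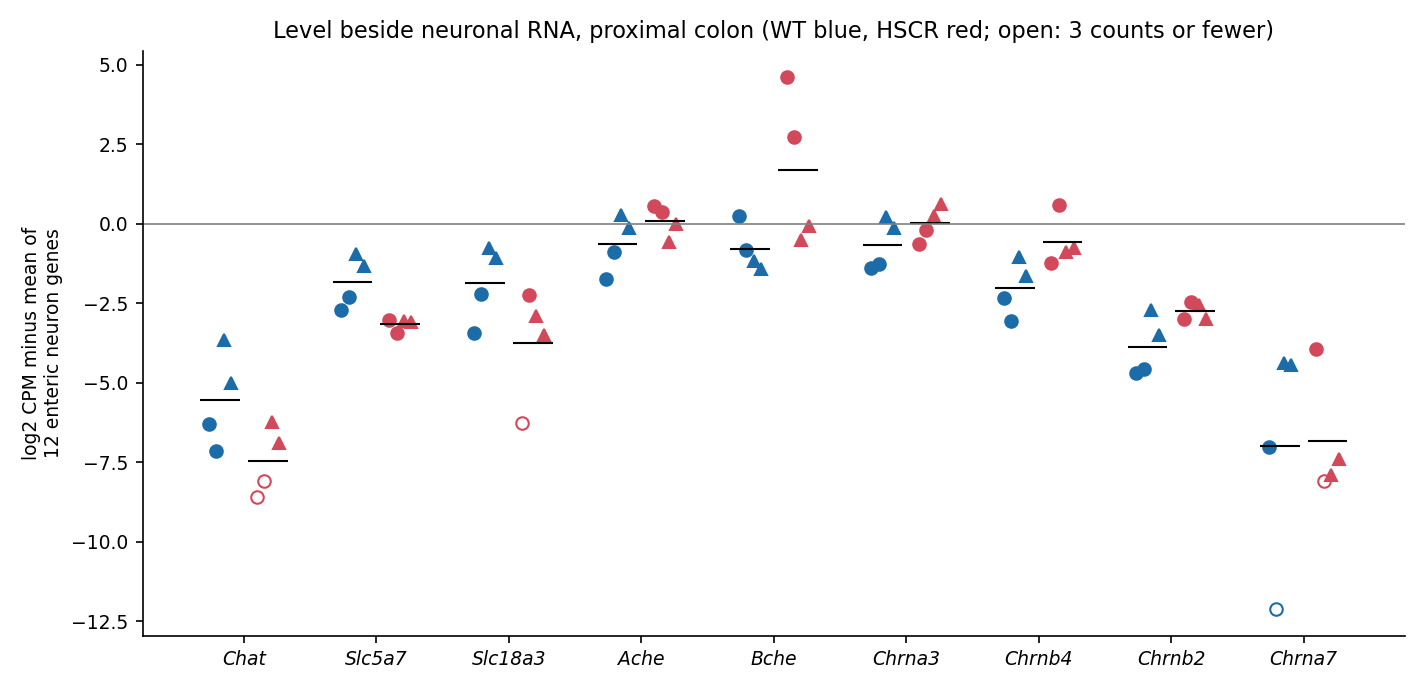
Log2 CPM of each gene minus the mean log2 CPM of 12 enteric neuron genes of the same library, in the 4 WT (blue) and 4 HSCR (red) proximal libraries. Circles are series 1, triangles series 2, open points hold 3 reads or fewer, and lines are group means. Slc5a7 lies between -3.43 and -3.05 in HSCR, below all WT points.

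Chrna3 served as a second reference, chosen after seeing the data. Over the 16 libraries its level followed the neuron genes with a Pearson r of 0.952, hardly closer than Slc5a7 (r = 0.951). Beside the neuron genes Chrna3 was itself 0.67 higher in HSCR proximal colon. That shift is part of each difference relative to Chrna3, and beside the neuron genes Slc18a3 and Chat overlapped. Relative to Chrna3, the mean difference of HSCR from WT was -2.001 for Slc5a7, -2.53 for Slc18a3 and -2.59 for Chat. For each of these 3 genes all HSCR proximal libraries were below all WT proximal libraries, against 0.15% of all genes. Chrna3 itself averaged lower in HSCR, so this share too is not a chance rate for a neuronal gene. The gap was narrow for Slc18a3, with the highest HSCR library at -2.06 and the lowest WT library at -2.03, and 2 of the HSCR values of Chat rest on 0 reads and the prior count. Without HSCR proximal 1 the differences were -2.25 for Slc5a7, -1.90 for Slc18a3 and -2.42 for Chat, again without overlap. In WT proximal 1 to 4 the log2 difference of Slc5a7 from Chrna3 was -1.31, -1.04, -1.14 and -1.19. The HSCR libraries measured -2.42, -3.24, -3.29 and -3.73. The WT values lay close together although the level of Slc5a7 itself varied more than 10-fold between those libraries. Chrnb4 relative to Chrna3 measured -0.93, -1.79, -1.25 and -1.49 in WT and -0.62, 0.77, -1.13 and -1.39 in HSCR, with overlapping groups.

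**Figure D4:**
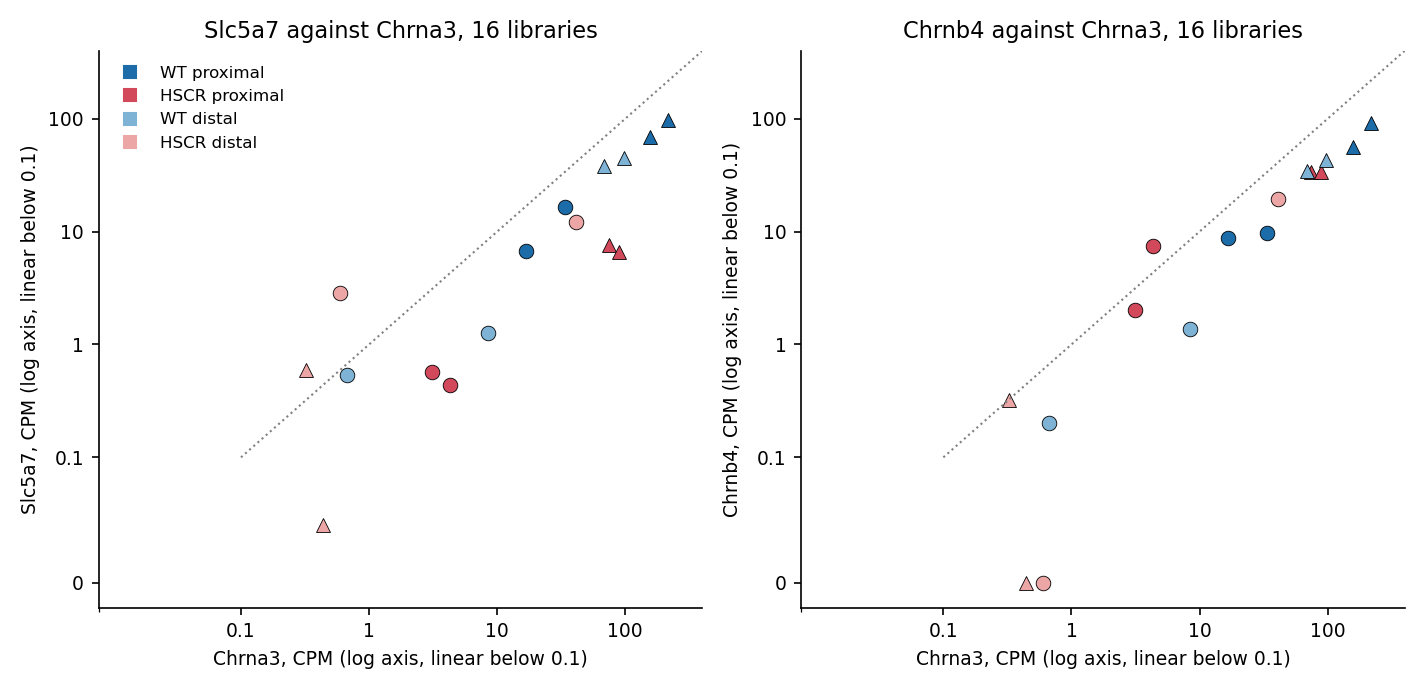
CPM of Slc5a7 (left) and of Chrnb4 (right) against CPM of Chrna3 in the 16 libraries, on log axes that are linear below 0.1. Colours mark the groups, circles series 1 and triangles series 2, and the dotted line marks equal values. The 4 HSCR proximal libraries lie below the WT proximal libraries for Slc5a7 at a given Chrna3 level, and for Chrnb4 they do not.

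In the distal colon, the segment described as lacking ganglia in HSCR mice, Chat measured 0, 1.18, 6.45 and 7.86 CPM in WT distal 1 to 4. It had no read in the 4 HSCR libraries. With a floor of 3 reads per library, the HSCR mean was at least 44.6-fold lower. Chat did not pass the filter on low counts there and was not tested by edgeR. Slc5a7 measured 0.534, 1.27, 44.6 and 38.3 CPM in WT distal 1 to 4, and 12.1, 2.87, 0.594 and 0.0461 CPM in HSCR. Slc18a3 measured 0.200, 3.61, 54.8 and 40.5 CPM in WT and 10.04, 0, 0.917 and 0 CPM in HSCR. WT distal 1 and 2 were thus as low as HSCR libraries, and the library labelled HSCR distal 1 was the highest HSCR library for both genes.

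Chrna3 measured 0.668, 8.48, 97.8 and 68.5 CPM in WT distal 1 to 4 and 41.2, 0.596, 0.324 and 0.438 CPM in HSCR. Chrnb4 measured 0.200, 1.38, 43.0 and 34.5 CPM in WT and 19.5, 0, 0.324 and 0 CPM in HSCR. Between 12 and 19 Chrna3 reads were left in HSCR distal 2, 3 and 4, and between 0 and 12 Chrnb4 reads. Chrnb2 measured 0, 0.375, 13.1 and 12.9 CPM in WT and 4.09, 0, 1.67 and 1.77 CPM in HSCR, so in HSCR distal 3 and 4 it exceeded Chrna3, the reverse of WT distal 3 and 4.

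Ache measured 3.34, 5.97, 102 and 81.6 CPM in WT distal 1 to 4 and 40.6, 2.46, 3.29 and 4.82 CPM in HSCR. Every HSCR distal library therefore kept at least 66 Ache reads, including those with hardly any neuronal RNA. Bche measured 14.96, 36.03, 146 and 138 CPM in WT and 90.8, 38.4, 84.0 and 75.4 CPM in HSCR, and WT distal 1 was the lowest of all. Chrna7 measured 0.200, 0.692, 8.27 and 13.2 CPM in WT and 0, 0.224, 0.162 and 0.369 CPM in HSCR, with 16 reads at most in an HSCR library.

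None of the 8 genes tested was called in the distal colon by edgeR's quasi-likelihood test, as none was of 17059 genes (0%). All 8 estimates were below 0, with a median of -2.05, where 46.1% of all genes were below 0. At an unadjusted p under 0.05, 1 gene was lower, against 1.76% of all genes. That gene was Chrna7, with a log2 fold change of -4.90 (SE 1.53, unadjusted p = 0.0106, adjusted p = 1.00 by edgeR). No member had all HSCR below all WT libraries, against 1.04% of all genes. RUVr with 4 factors called 5 of the 8 (Slc5a7, Ache, Chrna3, Chrnb4 and Chrna7) and 9.19% of all genes, and DESeq2 called none of them.

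The sizes in the distal colon rested on the library labelled HSCR distal 1. Without it, 6 of the 8 genes were lower at an unadjusted p under 0.05, against 4.13% of all genes, and none was called by edgeR. The log2 fold change of Chrna3 went from -2.07 to -6.65, that of Chrnb4 from -2.03 to -7.53, that of Slc18a3 from -3.21 to -6.40 and that of Slc5a7 from -2.47 to -4.24. In series 2 alone, all 9 genes had both HSCR below both WT distal libraries, against 19.6% of all genes. Mean CPM was 130-fold lower for Slc5a7, 104-fold for Slc18a3, 218-fold for Chrna3 and 239-fold for Chrnb4, but 22.6-fold for Ache, 7.55-fold for Chrnb2 and 1.78-fold for Bche. In series 1 none of the 9 had both HSCR below both WT distal libraries, against 15.4% of all genes, and Slc5a7 was at 7.48 CPM in HSCR and 0.902 CPM in WT. On the log2 scale, neuronal RNA in HSCR minus that in WT was 0.94 in series 1 and -6.19 in series 2. Relative to the 12 neuron genes no member had all HSCR distal libraries below all WT distal libraries, against 0.0997% of all genes. As in the proximal colon, this share is not a chance rate for a neuronal gene. In the libraries with little neuronal RNA, the values relative to the neuron genes rest on a handful of reads for several members.

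Between the segments of WT colon, 7 of the 9 genes were lower in the distal libraries and Bche and Chrna7 were higher in the estimate, with adjusted p-values from 0.930 to 0.985 by edgeR, and 0.0181% of all genes were called (3 of 16566). Chrna3 differed by -1.26 (SE 1.22) and Slc5a7 by -1.15 (SE 1.27). The estimate of Chrna7 changed sign when WT proximal 1, WT proximal 2 or WT distal 4 was left out. RUVr with 4 factors called 6 of the 9 and 17.9% of all genes. Between the segments of HSCR colon, 7 genes were tested and none was called by edgeR (0% of 17086 genes), while RUVr called 3 of them (Chrna3, Chrnb4 and Chrnb2) and 2.01% of all genes. A test of whether the genotype difference itself differed between segments gave no call among the 9 (0% of 18619 genes, edgeR with all 16 libraries), and Chat came closest with an interaction of -6.05 (SE 2.90, unadjusted p = 0.0582 by edgeR).

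Levels between genes were compared per length, in the deposited FPKM (fragments per kilobase of gene length, scaled to the size of the library). In WT proximal colon the order of the mean FPKM was Ache 23.5 ± 21.04 (SD, n = 4), Slc18a3 22.0 ± 20.9, Chrna3 19.9 ± 18.1, Chrnb4 10.9 ± 10.5, Bche 9.02 ± 2.35, Slc5a7 8.32 ± 7.58, Chrnb2 1.45 ± 1.48, Chat 1.12 ± 1.42 and Chrna7 0.956 ± 1.07. Neighbours in this order did not differ beyond their spread over libraries, but within libraries Chrna3 exceeded Chrnb4, Slc5a7 exceeded Chrnb2 and Chrnb2 exceeded Chat in 4 of 4. In HSCR proximal colon the mean FPKM of Bche was the highest at 8.93 ± 5.34, followed by Chrna3 at 7.89 ± 8.39, Ache at 5.94 ± 5.35 and Chrnb4 at 5.06 ± 4.44. Slc18a3 was lower in this order than in WT, at 1.46 ± 1.54, and Slc5a7 followed at 0.658 ± 0.662. In every WT proximal library the transporter gene Slc18a3 was more than 10 times as abundant per length as Chat, the gene that surrounds it.

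The Pearson correlation of log2 CPM over the 16 libraries was between 0.30 and 0.95 over the 28 pairs without Bche and between 0.31 and 0.66 over the 8 pairs with it. With the mean of the 12 neuron genes it was 0.95 for Chrna3 and Slc5a7, 0.90 for Slc18a3 and Ache, 0.86 for Chrnb4, 0.83 for Chat, 0.64 for Chrnb2, 0.40 for Chrna7 and 0.25 for Bche. These points share libraries that differ in neuronal RNA, and the correlations are a description. Of 18618 other genes, the 3 most like Chrna3 were Nos1 (r = 0.973), the neuronal nitric oxide synthase of inhibitory motor neurons, Amph (r = 0.972) and Ptprn (r = 0.969). Those most like Ache were Lrp11 (r = 0.985) and Aplp1 (r = 0.979), followed by Ptprn. For Chat they were Bglap2 (r = 0.962), Pnma8a (r = 0.946) and Ahi1 (r = 0.934), and for Bche they were Lrig1 (r = 0.886), Col4a5 (r = 0.878) and Prr22 (r = 0.869). Bglap2 did not exceed 4.75 CPM. It measured 0 in HSCR proximal 1 and 2, WT distal 1 and every HSCR distal library, where Chat also had no read. Its r thus rests in part on shared zeros and the prior count. Prr22 did not exceed 0.514 CPM in any library.

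The pathway was further described by 40 genes in 5 lists. In the proximal colon 32 were tested, 19 had an estimate below 0 and the median was -0.27. At an unadjusted p under 0.05, 2 were lower and 1 was higher, and none was called by edgeR. Of all 16664 genes, 46.8% were below 0 with a median of 0.04, and 689 (4.13%) were lower and 414 higher at that limit. In the distal colon 29 were tested, 17 were below 0 with a median of -0.32, 1 was lower and 1 was higher, and none was called. Of all 17059 genes there, 46.1% were below 0 with a median of 0.04, and 300 (1.76%) were lower and 150 higher.

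Slc10a4, a vesicle protein of cholinergic and monoaminergic neurons, was the gene with the smallest p in both segments. It measured 6.25, 29.4, 118 and 83.3 CPM in WT proximal 1 to 4 and 0.09997, 0, 3.82 and 2.11 CPM in HSCR proximal 1 to 4. All HSCR libraries were below all WT libraries, against 2.83% of all genes. The log2 fold change was -5.31 (unadjusted p = 0.00678, adjusted p = 0.691 by edgeR). In the distal colon it measured 1.74, 1.64, 53.3 and 38.0 CPM in WT and 1.14, 0, 0.594 and 0 CPM in HSCR, again without overlap, against 1.04% of all genes (log2 fold change -5.80, unadjusted p = 0.0106, adjusted p = 1.00 by edgeR). The gap there was narrow, with the highest HSCR library at 1.14 CPM and the lowest WT library at 1.64 CPM. The library labelled HSCR distal 1 thus had 1.14 CPM of Slc10a4 beside 41.2 CPM of Chrna3, where WT proximal 2, with 33.8 CPM of Chrna3, had 29.4 CPM. HSCR proximal 3 and 4 were likewise low in Slc10a4, at 3.82 and 2.11 CPM beside 74.4 and 88.7 CPM of Chrna3.

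Of the other nicotinic subunits, 6 of 12 passed the filter in the proximal colon, and none had an unadjusted p under 0.05 in either segment. Chrnb1, the β1 subunit of muscle, had the highest level (proximal log2 fold change -0.68, distal 0.54). Chrna5, an accessory subunit encoded next to Chrna3, measured 0.452, 0.811, 12.2 and 8.34 CPM in WT proximal 1 to 4 and 0.425, 1.02, 4.43 and 3.94 CPM in HSCR proximal 1 to 4 (log2 fold change -1.19). Of the muscarinic receptors, through which acetylcholine contracts smooth muscle, Chrm2 averaged 91.9 ± 55.04 CPM (SD, n = 4) in WT and 101 ± 81.3 CPM in HSCR proximal colon, and Chrm3 averaged 9.19 ± 5.41 and 14.4 ± 11.0 CPM. Neither they nor Chrm1 and Chrm4 passed an unadjusted p of 0.05 in either segment.

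Among 9 receptor chaperones and Ly6 modulators, small membrane proteins that bind nicotinic receptors, Ly6h was lower in the proximal colon (log2 fold change -1.18, unadjusted p = 0.0368, adjusted p = 0.747 by edgeR). The most abundant of them, Ly6e and Lynx1, had proximal log2 fold changes of -0.22 and 0.08. Both cholinesterase anchors, Colq and Prima1, which tether Ache to the extracellular matrix and to membranes, had estimates below 0 in both segments, at -1.86 and -0.72 (proximal) and -1.41 and -1.24 (distal), without an unadjusted p under 0.05.

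Of 12 genes of choline supply and acetyl-CoA, the 2 with the highest level were Acly (log2 fold change -0.43 in the proximal colon) and Slc44a1 (0.44). Slc44a4 was higher in the proximal colon (log2 fold change 3.54, unadjusted p = 0.0184, adjusted p = 0.747 by edgeR), and Slc44a3 was higher in the distal colon (log2 fold change 2.18, unadjusted p = 0.0490). Slc44a4 was highest, at 361 CPM, in HSCR proximal 2, the library with the highest sum of 8 epithelial genes (14347 CPM). These 8 genes summed to between 40.5 and 1781 CPM in WT proximal and between 185 and 14347 CPM in HSCR proximal libraries. In the distal colon Slc44a3 was highest, at 25.7 CPM, in HSCR distal 3, where the epithelial genes summed to 5105 CPM against a WT range of 121 to 2325 CPM. The part of epithelial RNA in both values was not tested.

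**Figure D5:**
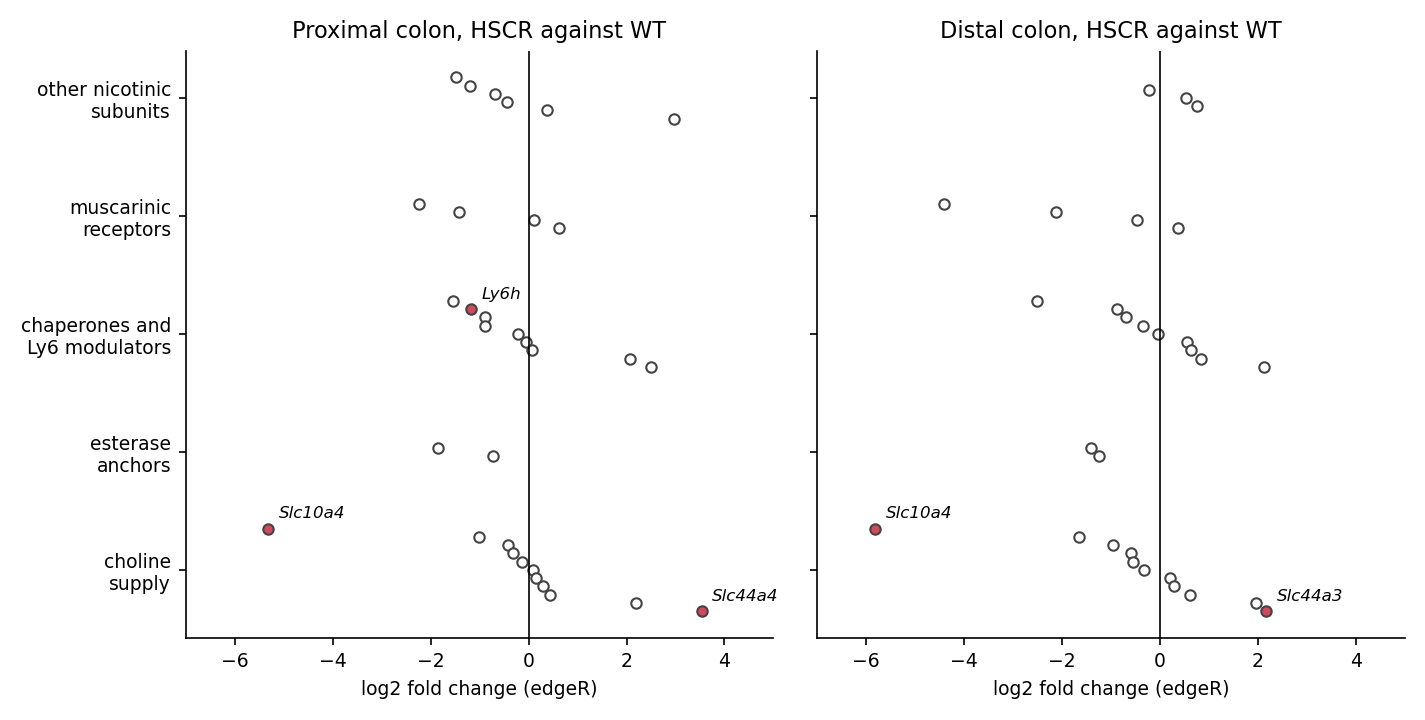
Log2 fold change in HSCR against WT of the other genes of the pathway, by list, in the proximal (32 genes) and distal colon (29 genes). Filled points have an unadjusted p under 0.05 by edgeR and carry the gene's name, and no gene passed after adjustment. Slc10a4 lies at -5.31 and -5.80.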

How the data were processed

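Poly(A) RNA from 16 LMMP samples was sequenced. The authors aligned reads with HISAT2 (2.2.1) to mm39 and assigned them to a GENCODE gene model with featureCounts (2.0.6), giving the deposited raw count per gene and library. The authors also deposited FPKM values, whose formula is not given in the sources used here. Strandedness of counting is likewise not given in the sources used here. The authors' own fold changes and p-values, and their table of selected genes, were not used.

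Groups were taken from the labels. Counts were filtered (filterByExpr) and TMM-scaled, and each comparison was tested over all genes with edgeR (4.0.16, R 4.3.3) by its quasi-likelihood test with Benjamini-Hochberg adjustment. Levels are CPM, TMM-scaled over 16 libraries, with a prior count of 0.5 on the log2 scale. Single values were compared by exact two-sided permutation of 4 against 4 libraries. Intervals of 95% and the floor of 3 counts cover the spread between libraries and counting error respectively, and total counts of 21384372 to 45831881 set the precision. Of 120 pairs of libraries none was identical. The scripts were tested on simulated data with known changes.

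Members and lists were chosen with earlier results of these data known. All 9 members were named. Of each other list, the 2 genes with the highest mean CPM were named, and any with an unadjusted p under 0.05 in a genotype comparison. The 3 genes with the highest Pearson r to a member were named for Chat, Chrna3, Ache and Bche. The alternatives were DESeq2 (1.42.0), a likelihood ratio test, RUVr with 4 factors, no count filter, totals without mitochondrial genes, the library series as a term, a replicate block, all 16 libraries in 1 fit, a prior count of 2, 5 neuron genes as the reference, and leaving out each library. Comparisons within a library series and relative to Chrna3, each also without HSCR proximal 1, were added after seeing the data.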

Additional observations from a re-analysis of the deposited data

Results flagged for a closer look

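The library labelled HSCR distal 1 stood far from the other 3 HSCR distal libraries for 4 of the 9 genes, with a gap to the nearest library, as a share of the group's range, above Dixon's critical value at 95%. It measured 10.04 CPM of Slc18a3, where the next library measured 0.917 CPM. For Ache it measured 40.6 CPM against 4.82 CPM, for Chrna3 41.2 CPM against 0.596 CPM, and for Chrnb4 19.5 CPM against 0.324 CPM. Of 35 groups of 4 libraries examined, chance would pass this limit in about 1 in 20 if the values were normally distributed. The gap was taken on CPM, where that rate may not hold. On the log2 scale Slc18a3 measured 3.33, -5.75, -0.10 and -6.44 in HSCR distal 1 to 4, a smaller gap for its range. The 4 genes were flagged in 1 library and correlate, so they are not 4 separate outcomes. The same library had the highest Ednrb level of the 16, at 97.0 CPM, and a neuron gene average of 6.22 on the log2 CPM scale.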

How the results depend on the processing

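The counts of called genes depended on the model. In the proximal colon edgeR's quasi-likelihood test called 0, DESeq2 2, RUVr 7 and the library series as a term 1. RUVr called 5 in the distal colon, 6 between WT segments and 3 between HSCR segments. In the proximal comparison 134 of 140 log2 fold changes under an alternative kept their direction, in the distal comparison 122 of 128, between WT segments 139 of 144, between HSCR segments 108 of 119 and for the interaction 184 of 216. The cause of the reversals was not tested.

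Bche was 0.0094 in the proximal colon with all 16 libraries in 1 fit, and in the distal colon 0.18 with RUVr and 0.23 with the series term, where Chrnb2 was 0.11. Between HSCR segments Slc5a7 was -0.80 with RUVr, -0.013 without the filter and -0.30 with the series term. The interaction with RUVr was -1.20 for Slc18a3, -0.0012 for Ache, 0.17 for Bche, 0.26 for Chrnb2 and 0.54 for Chrna7. It was -0.017 for Ache without the filter, and with the series term 2.06 for Chrna3, 1.46 for Chrnb4 and 1.95 for Chrnb2.

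Nothing in the labels says that a replicate number marks an animal, although the library names of replicates 1 and 2 also share a number across groups, and the correlations did not all pass 0.1. Deviations of same-numbered libraries correlated between -0.12 and 0.24 in the proximal and between -0.21 and 0.41 in the distal comparison, and 1 of 4 correlated best with its own number in each. Between WT segments the range was 0.0997 to 0.438 (3 of 4) and between HSCR segments 0.00064 to 0.359 (2 of 4). With the replicate block, 0 genes were called in the proximal colon, and Slc5a7 was -3.94 (adjusted p = 0.237 by edgeR). The replicate block gave 0.14 for Bche (distal), -0.0045 for Bche (WT segments), -0.62 for Slc5a7 (HSCR segments), and interactions of 0.29 for Chrna3 and 1.12 for Chrnb2.

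Leaving out 1 library, or HSCR proximal 1 with HSCR distal 1, moved Bche from -0.51 to 0.20 in the proximal and from -0.62 to 0.17 in the distal colon. Between WT segments Chrna7 ranged from -0.49 to 1.02 and Chat from -1.06 to 0.86. Between HSCR segments Slc5a7 ranged from -2.10 to 0.60, Slc18a3 from -4.02 to 0.43 and Bche from -0.028 to 0.71. The interaction ranged from -2.17 to 0.71 for Ache, -0.58 to 0.28 for Bche, -1.58 to 0.24 for Chrnb2, -5.71 to 0.021 for Chrna3, -1.23 to 0.24 for Chrna7, -0.95 to 1.85 for Slc5a7 and -2.87 to 1.5 for Slc18a3.

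Genes with all HSCR below all WT libraries numbered 7 in series 1 and 9 in series 2 for proximal levels, and 9 in series 2 for distal levels, against 13.9%, 23.7% and 19.6% of all genes. Relative to the neuron genes they numbered 2 and 4 in the proximal colon (0.348% and 2.08% of all genes) and 1 and 4 in the distal colon (5.21% and 0.58%), 0 with 5 neuron genes (0.066% in the proximal colon) and 3 relative to Chrna3 (0.15%). Leaving out 1 library gave 0 to 2 for levels in each segment (3.47% to 6.42% of all genes in the proximal and 1.49% to 3.47% in the distal colon; 2 without WT proximal 1, HSCR proximal 3 or WT distal 1), 1 to 2 relative to the neuron genes in the proximal colon (0.09% to 0.258%; 2 without WT proximal 1) and 0 to 1 in the distal colon (0.0997% to 0.223%; 1 without WT distal 1). Shares relative to the neuron genes or to Chrna3 move with that reference and are not chance rates for neuronal genes. Chat and Chrna7 held 0 to 45 reads in HSCR libraries, and their folds are limited by depth.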
